A study of Homo sapiens with 2 samples.

Results

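CDC42 is a small GTPase that shapes the actin cytoskeleton, and it acts by binding effector proteins in its GTP-bound state. The CDC42 effector proteins CDC42EP1 to CDC42EP5, also called Borg proteins, bind active CDC42 and septins. The p21-activated kinases (PAKs) carry a related CDC42-binding motif and phosphorylate regulators of actin. BAIAP2, also called IRSp53, binds CDC42 and bends the plasma membrane outward, and IQGAP1 is a scaffold that binds active CDC42, actin and calmodulin. Membrane ruffling and macropinocytosis, the actin-driven uptake of fluid, draw on proteins of this kind.

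10 such genes were listed, and each was read by every probe set that the array annotation assigns to that gene alone. 9 of the 10 genes had such probe sets, 27 in all, of 41097 probe sets and 19775 genes with 1 gene symbol. PAK1 was not analysed here. Gene expression was measured in AsPC-1, a human pancreatic ductal adenocarcinoma cell line, transfected with siRNA against the progesterone receptor gene PGR or with control siRNA. There was 1 array per condition, so no difference has a replicate check, no test was made, and precision is limited by having a single array on each side. The study set the arrays side by side to look for the genes through which PGR acts on the behaviour of these cells.

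The values are linear intensities of 3' expression arrays, and a difference is log2(intensity + 1) on the PGR siRNA array minus that on the control array. Readings under 97.9, the median of all values of probe sets with 1 gene symbol, were taken as below the signal floor. PGR lay below that floor on both arrays, at 73.3 on the PGR siRNA array and 16.1 on the control array with its brighter probe set, an order opposite to the labels in readings too dim to check them. The names PGR siRNA array and control array, and so every direction given here, rest on the labels alone. The epithelial keratins and adhesion genes that mark ductal cells reached the floor on both arrays in 6 of 6 cases, while 0 of 3 acinar and 0 of 2 leukocyte markers reached it on either array. Of the fibroblast markers 2 of 4 reached it, and of the endothelial markers 1 of 3. The fibroblast markers summed to 434 on the PGR siRNA array and 423 on the control array, the endothelial markers to 119 and 197 on the same arrays, and their part in the differences was not tested.

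Promoters of the member genes are shown to let the array values be read beside the DNA at their annotated start sites. Which of these start sites the cells used was not measured. RefSeq promoters of GRCh38.p14, from 250 bases before to 50 bases after the start site, were found for 8 of the 9 genes, 14 start sites in all. BAIAP2 had the lowest difference among the members when each gene was read by its brightest probe set, IQGAP1 the smallest in size and PAK4 the highest. Their most upstream promoters follow, with the GC box GGGCGG on either strand in capitals, overlapping copies included:
BAIAP2, chr17:81034901-81035200, plus strand: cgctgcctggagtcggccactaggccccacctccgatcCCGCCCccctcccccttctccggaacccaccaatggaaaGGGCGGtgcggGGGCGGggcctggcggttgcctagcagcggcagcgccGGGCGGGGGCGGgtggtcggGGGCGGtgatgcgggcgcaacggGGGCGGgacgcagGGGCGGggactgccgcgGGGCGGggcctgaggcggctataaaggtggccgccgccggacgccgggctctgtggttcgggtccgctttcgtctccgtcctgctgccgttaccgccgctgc
IQGAP1, chr15:90387992-90388291, plus strand: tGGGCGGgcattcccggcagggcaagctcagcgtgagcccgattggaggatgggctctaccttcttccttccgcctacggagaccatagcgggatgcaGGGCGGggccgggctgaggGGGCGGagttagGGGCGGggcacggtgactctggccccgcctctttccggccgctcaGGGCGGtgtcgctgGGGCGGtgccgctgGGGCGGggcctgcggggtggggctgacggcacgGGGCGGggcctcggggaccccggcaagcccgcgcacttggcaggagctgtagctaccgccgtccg
PAK4, chr19:39125536-39125835, plus strand: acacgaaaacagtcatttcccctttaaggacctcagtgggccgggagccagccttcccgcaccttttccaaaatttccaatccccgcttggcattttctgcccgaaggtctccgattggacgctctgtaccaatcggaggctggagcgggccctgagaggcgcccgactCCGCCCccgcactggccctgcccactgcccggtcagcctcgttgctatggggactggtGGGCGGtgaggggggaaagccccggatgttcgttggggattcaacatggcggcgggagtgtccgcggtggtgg

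GC boxes, the letters bound by SP and KLF factors, occurred 9 times in this BAIAP2 promoter, 8 times in that of IQGAP1 and 2 times in that of PAK4. The BAIAP2 promoters not shown held 1, 1 and 3 boxes, and the PAK4 promoter not shown held 4, so the order of these genes depends on the start site. Among the 14 promoters 12 held at least 1 box, against 45.0% of 35116 promoters of the same length. BAIAP2, CDC42EP3 and PAK4 each have more than 1 of the 14, and windows of CDC42EP3 overlap. The 14 are therefore not independent. The letters CCAAT, bound by NF-Y, were in 5 of the 14 promoters on either strand, against 34.6% of all, and the PAK4 promoter shown held 3 copies, where 3.26% of all promoters held 3 or more. The hexamer AGAACA, the core of the element that PGR shares with other steroid receptors, was in 0 of the 14 promoters on either strand, against 14.8% of all promoters. The 14 promoters were rich in G and C, with a median content of 69.3%, against 58.7% over all promoters. The CDC42 window of the same length did not hold this exact hexamer either. For the CDC42 promoter region the study reported predicted PGR sites, a reporter response and PGR binding, which this search cannot check. The windows searched here say nothing of sites farther away or of other forms of the element.

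Over the 9 genes, each read by the brightest of its probe sets, 5 were lower and 4 higher on the PGR siRNA array, and the median difference was -0.13 on the log2 scale. Over all 11614 genes that reached the floor the median was 0.021, and 46.8% of them were lower. BAIAP2 was the 1 member at least 1.5-fold lower, a share to be read against 4.72% of all genes, and 0 members were at least 1.5-fold higher, against 3.65% of all genes. The BAIAP2 call ended with the mean of its probe sets past the floor, at -0.54, and with its probe set lacking the suffix s or x, at -0.36. Of the 27 probe sets, 22 reached the floor on at least 1 array and 21 on both. Of these 21, 15 were lower and 6 higher on the PGR siRNA array, while 48.6% of the 19569 probe sets past the floor on both arrays were lower. Probe sets of a gene share its transcripts and are not replicates. Of the 21, 1 was at least 1.5-fold lower, against 3.23% of all, and 0 were at least 1.5-fold higher, against 2.21%. Of the 22 that reached the floor on at least 1 array, 1 was at least 1.5-fold lower, against 6.21% of all, and 1 at least 1.5-fold higher, against 4.61%.

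**Figure D1:**
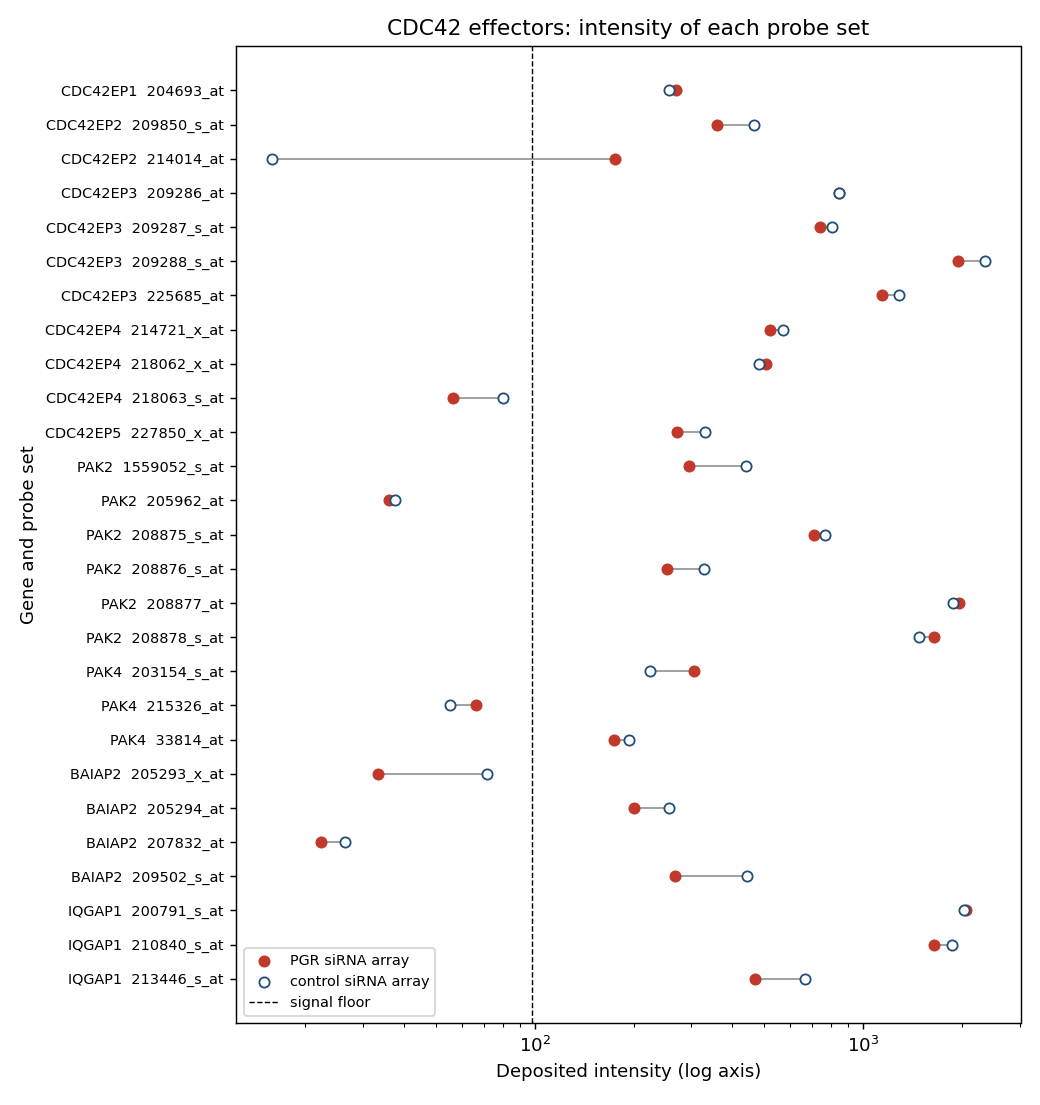
Intensity (log axis) of each of the 27 probe sets, with 1 row per probe set, filled points for the PGR siRNA array, open points for the control array and the signal floor of 97.9 as a dashed line. Most pairs of points lie close together, and the wide gap is that of the CDC42EP2 probe set 214014_at, whose control value lies far below the floor.

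Of the 5 CDC42 effector proteins, 4 were lower on the PGR siRNA array and 1 higher by their brightest probe sets, each by less than 1.5-fold. Of all genes that reached the floor, 46.8% were lower. CDC42EP3, which binds septins and actin, was read by 4 probe sets, all well above the floor. The brightest, 209288_s_at, read 1951 on the PGR siRNA array and 2350 on the control array, a log2 difference of -0.27. Probe set 225685_at read 1145 on the PGR siRNA array and 1284 on the control array, and 209287_s_at read 741 and 804 on the same arrays. The fourth, 209286_at, read 844 on the PGR siRNA array and 846 on the control array, a log2 difference of -0.0041. All 4 differences were negative, but 209286_at read nearly alike on both arrays and gives no direction. The 4 spanned 0.26 on the log2 scale. Among the 1000 probe sets nearest in signal to the brightest, differences had an SD of 0.20, which measures scatter between these arrays and not between cultures.

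CDC42EP2 was read by 2 probe sets that went opposite ways. Probe set 209850_s_at read 359 on the PGR siRNA array and 466 on the control array, a log2 difference of -0.38. Probe set 214014_at read 175 on the PGR siRNA array and 15.8 on the control array, a log2 difference of 3.39, but with its control value raised to the floor it was at least 1.79-fold higher on the PGR siRNA array. It was the 1 probe set counted above as at least 1.5-fold higher. The brighter and the dimmer probe set of CDC42EP2 give no common direction.

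CDC42EP1, CDC42EP4 and CDC42EP5 complete this family. CDC42EP1, with 1 probe set, read 269 on the PGR siRNA array and 256 on the control array, a log2 difference of 0.075. CDC42EP4 read 521 on the PGR siRNA array and 572 on the control array with 214721_x_at, a log2 difference of -0.13, and 506 and 481 on the same arrays with 218062_x_at, a log2 difference of 0.073. CDC42EP5, with 1 probe set, read 272 on the PGR siRNA array and 330 on the control array, a log2 difference of -0.28. The probe sets of CDC42EP4 past the floor and that of CDC42EP5 carry the suffix x, which marks probes that can also bind other sequences. Their readings may thus include other transcripts. The last CDC42EP4 probe set, 218063_s_at, was below the floor on both arrays.

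**Figure D2:**
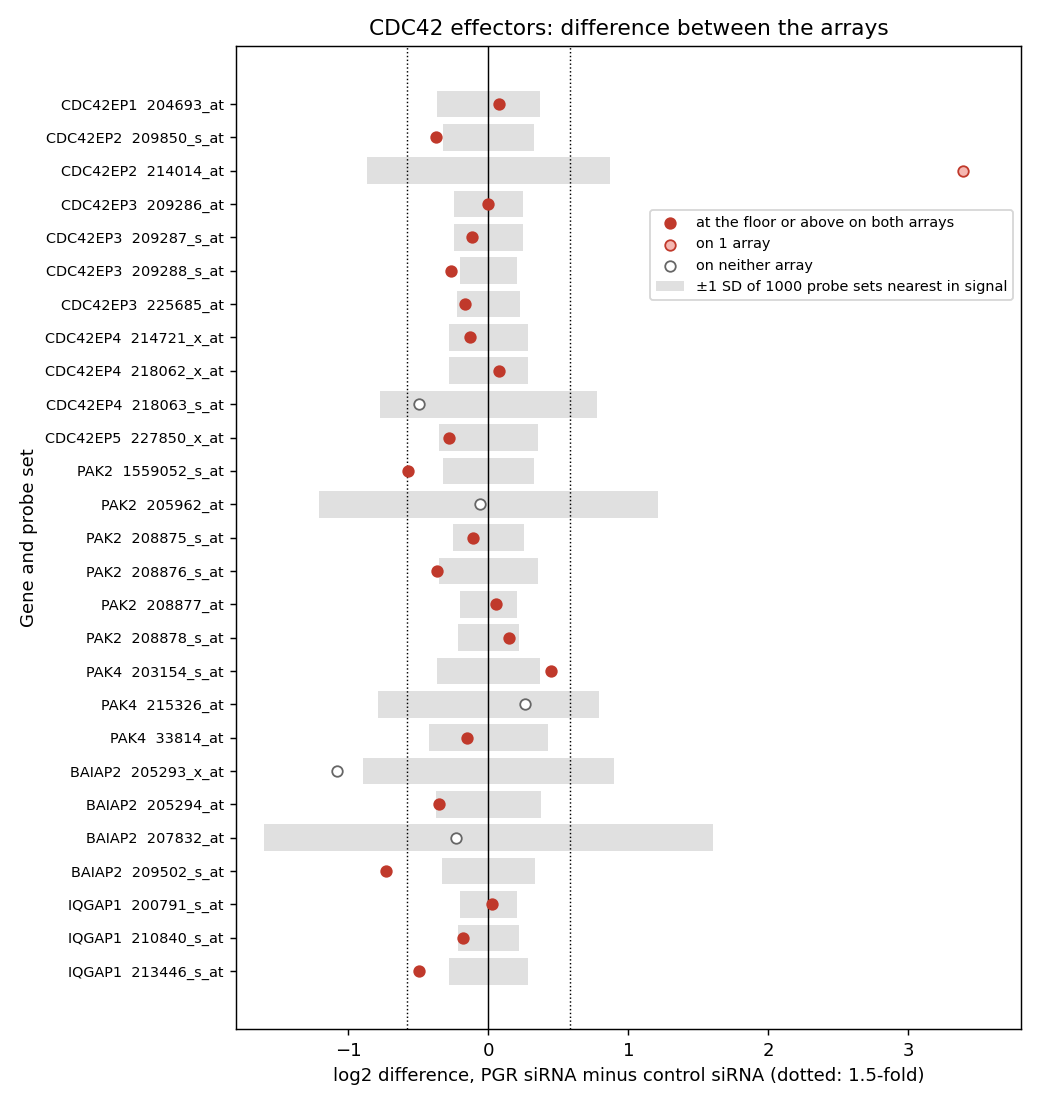
Log2 difference, PGR siRNA minus control siRNA, of each of the 27 probe sets, with dotted lines at 1.5-fold and grey bars for 1 SD, either side of 0, of the 1000 probe sets nearest in mean signal. Filled points reach the floor on both arrays, the pale point on 1 and open points on neither, and BAIAP2 209502_s_at at -0.73 is the filled point farthest from 0.

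The 2 PAKs measured here, PAK2 and PAK4, gave no common direction. PAK2, a broadly expressed group I kinase that caspases can cleave, was read by 6 probe sets, 5 of them past the floor on both arrays. Its brightest, 208877_at, read 1956 on the PGR siRNA array and 1885 on the control array, a log2 difference of 0.054, and 208878_s_at read 1642 on the PGR siRNA array and 1485 on the control array, a log2 difference of 0.15. The dimmer ones were lower. Probe set 208875_s_at read 709 on the PGR siRNA array and 765 on the control array, a log2 difference of -0.11. Probe set 208876_s_at read 253 on the PGR siRNA array and 327 on the control array, at -0.37. Probe set 1559052_s_at read 295 on the PGR siRNA array and 440 on the control array, at -0.57, or 1.49-fold lower on the PGR siRNA array, just short of 1.5-fold. The PAK2 probe sets past the floor therefore spanned 0.72 on the log2 scale, from higher to lower. Over 5203 genes with at least 2 probe sets past the floor on both arrays the median of that span was 0.30 and the 95th percentile 0.90, which PAK2 did not reach, and a span widens with the number of probe sets.

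PAK4, a group II kinase that keeps cofilin in check through LIM kinase, had the highest difference among the members read by their brightest probe set. Probe set 203154_s_at read 306 on the PGR siRNA array and 225 on the control array, a log2 difference of 0.44, while the 1000 probe sets nearest in signal had an SD of 0.36. Probe set 33814_at read 175 on the PGR siRNA array and 194 on the control array, a log2 difference of -0.15. These probe sets disagreed in sign. The third, 215326_at, was below the floor on both arrays, at 66.1 on the PGR siRNA array and 55.1 on the control array.

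BAIAP2 was lower on the PGR siRNA array by the 2 of its 4 probe sets that reached the floor. Its brightest, 209502_s_at, read 267 on the PGR siRNA array and 444 on the control array, a log2 difference of -0.73, or 1.66-fold lower, where the 1000 probe sets nearest in signal had an SD of 0.33. Probe set 205294_at read 200.1 on the PGR siRNA array and 257 on the control array, a log2 difference of -0.36, within the SD of 0.38 at its own signal. The remaining probe sets were below the floor on both arrays. Probe set 205293_x_at read 33.3 on the PGR siRNA array and 71.5 on the control array, and 207832_at read 22.4 and 26.5 on the same arrays. The probe sets of BAIAP2 past the floor thus shared their sign and differed in size, by 0.37 on the log2 scale.

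IQGAP1 was read by 3 probe sets past the floor on both arrays. The brightest, 200791_s_at, read 2063 on the PGR siRNA array and 2026 on the control array, a log2 difference of 0.026. Probe set 210840_s_at read 1645 on the PGR siRNA array and 1864 on the control array, at -0.18, and 213446_s_at read 470 on the PGR siRNA array and 665 on the control array, at -0.50. The brightest thus showed hardly any difference, and the dimmest was lower by 1.41-fold on the PGR siRNA array.

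**Figure D3:**
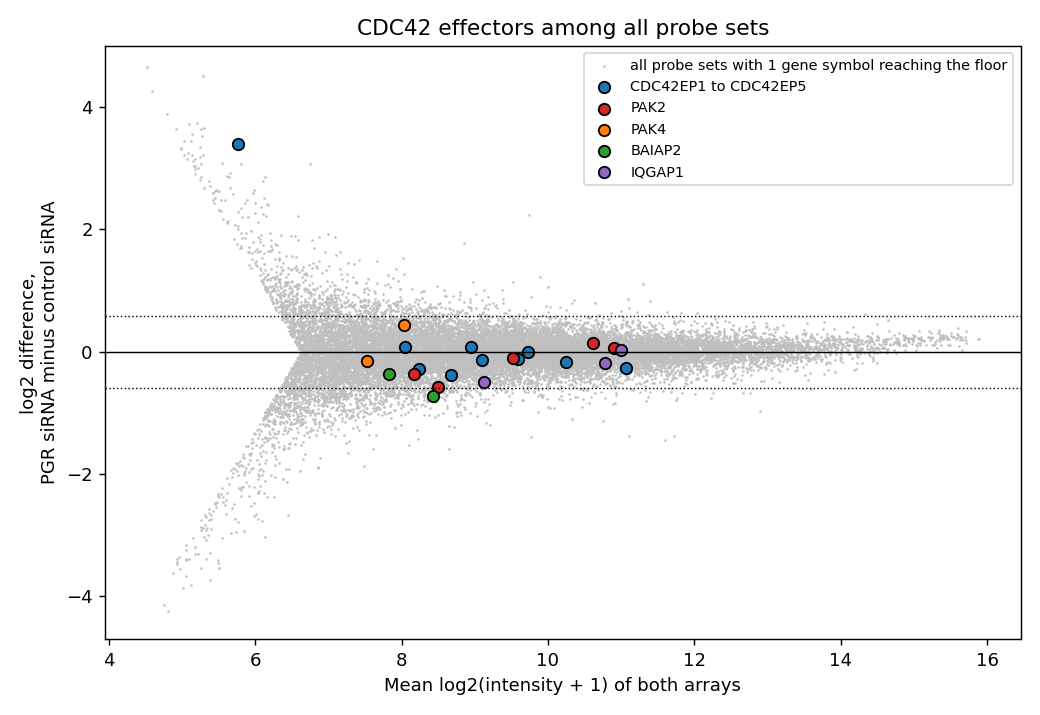
Log2 difference, PGR siRNA minus control siRNA, against the mean log2(intensity + 1) of both arrays, with 1 grey point per probe set that reached the floor and coloured points for the 22 member probe sets among them. Dotted lines mark 1.5-fold, and the members lie within the grey cloud, with the CDC42EP2 probe set 214014_at at 3.39 in the dim region where only unequal pairs reach the floor.

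The genes that act with these effectors were grouped in 7 lists of 92 genes, of which 79 had a probe set and 70 reached the floor. Of the 70, 5 were at least 1.5-fold lower and 1 at least 1.5-fold higher on the PGR siRNA array, which is 7.14% and 1.43%, beside 4.72% and 3.65% of all genes, and the median difference was -0.037, beside 0.021 over all genes. The 5 lower genes were PARD6B, RHOV, LIMK1, MAPK3 and RHOJ, and the higher one was SEPTIN4. RHOJ and SEPTIN4 were below the floor on 1 array, at 70.6 on the PGR siRNA array and 107 on the control array for RHOJ, and 114 and 72.3 on the same arrays for SEPTIN4. With the dim value raised to the floor, RHOJ was at least 1.09-fold lower and SEPTIN4 at least 1.16-fold higher on the PGR siRNA array.

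Upstream of the effectors, CDC42 itself read 2394 on the PGR siRNA array and 2376 on the control array by its brightest probe set, and the difference was 0.011 on the log2 scale. RHOV, an atypical GTPase of the CDC42 branch that binds PAKs, read 143 on the PGR siRNA array and 256 on the control array, a log2 difference of -0.83 on its only probe set. RAC1, which also binds PAKs and drives ruffles, was highest of that list at 0.17. The list of 6 GTPases had a median of -0.22, with 3 higher and 3 lower.

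Among other CDC42-binding kinases 0 of 6 genes passed 1.5-fold in either direction by their brightest probe sets. TNK2, a tyrosine kinase, was lowest at -0.32 and MAP3K11, a kinase of the JNK pathway, highest at 0.25. MAP3K9 lay at -0.091 by its brightest probe set, and its other probe set past the floor lay at -0.96. PAK6, named here as a further PAK after its values were seen, read 1096 on the PGR siRNA array and 1157 on the control array, a log2 difference of -0.079, and PAK5 was below the floor on both arrays. Of 14 adaptors and scaffolds that bind CDC42, 10 were lower and 4 higher, beside 46.8% of all genes lower, with a median of -0.051. PARD6B, a polarity adaptor, read 1163 on the PGR siRNA array and 2557 on the control array, a log2 difference of -1.14, and its other probe sets past the floor lay at -0.84 and -0.13. PARD6G, of the same family, was highest at 0.084.

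Downstream of the PAKs, LIMK1, a LIM kinase that phosphorylates cofilin, read 148 on the PGR siRNA array and 242 on the control array, a log2 difference of -0.71 on its only probe set past the floor. LIMK2, another LIM kinase, read 677 on the PGR siRNA array and 692 on the control array, a log2 difference of -0.030. Its other probe sets past the floor lay at 0.067 and 0.87. CFL1, cofilin itself, was highest of the 16 PAK partners at 0.18, and the median of that list was 0.024. Septins, the filament proteins that Borg proteins bind, had a median of 0.060 over 9 genes, with SEPTIN3 at 0.20 and SEPTIN6 at -0.39, the highest and lowest of those past the floor on both arrays. SEPTIN3 lay near the floor, at 116 on the PGR siRNA array and 101 on the control array. The other SEPTIN6 probe sets past the floor ran from -0.93 to 0.073. Neither the median of the PAK partners nor that of the septins lay below that of all genes.

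The partners of BAIAP2, which are WAVE complex subunits, EPS8, Ena/VASP proteins, the formin DIAPH1 and the Rac exchange factor TIAM1, had 8 of 11 genes lower and a median of -0.076, with 0 past 1.5-fold. ABI1, a WAVE complex subunit, was lowest at -0.38 and EVL, an Ena/VASP protein, highest at 0.28. The partners of IQGAP1 had 7 of 9 genes lower and a median of -0.16. For the partners of BAIAP2 and of IQGAP1 alike, the share to set beside these counts is 46.8% of all genes lower. MAPK3, which encodes ERK1, read 299 on the PGR siRNA array and 467 on the control array, a log2 difference of -0.64 on a probe set with the suffix x, and MAP2K2, a kinase upstream of it, was highest at 0.29, with another probe set at -0.34.

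**Figure D4:**
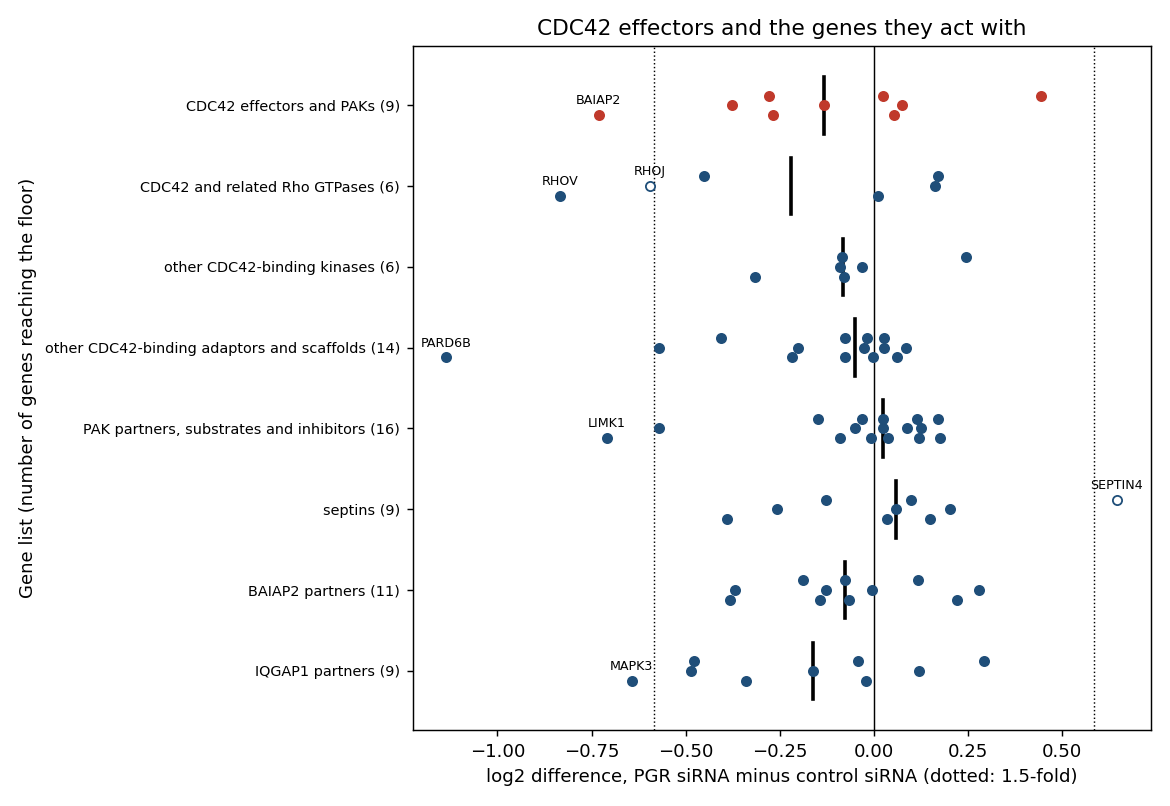
Log2 difference, PGR siRNA minus control siRNA, of each gene that reached the floor, read by its brightest probe set, for the CDC42 effectors and PAKs and for the 7 lists of genes that act with them. Black bars are medians, dotted lines mark 1.5-fold and open points are genes below the floor on 1 array, and the medians run from -0.22 for the GTPases to 0.060 for the septins.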

How the data were processed

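Total RNA of AsPC-1 cells was amplified, labelled with biotin and hybridised to 3' expression arrays, 1 per condition. The authors deposited 1 intensity per probe set and array on a linear scale. Of the summarising, background correction and scaling of probes, the methods are not given in the sources used here. Each array's trimmed mean, without 2% of the values at either end, was 500.1, so intensities had been scaled to a common level.

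Only probe sets with 1 gene symbol in the platform annotation were used (41097), leaving out 1801 with several and 11777 with none. Symbols were updated through gene identifiers to RefSeq for 41043 of them. Differences are log2(intensity + 1), PGR siRNA minus control. A probe set was counted if its higher value reached 97.9, the median of these intensities. No p-value or standard error was computed, because each condition had 1 array, and 1.5-fold was a rule of size. Each gene was read by the probe set whose mean log2 signal was highest. The members and lists were chosen with earlier results of these data known. Genes named are all members, PGR, CDC42, the lowest and highest gene of each list past the floor on both arrays, and list genes past 1.5-fold there. RHOJ, SEPTIN4, PAK5, PAK6, LIMK2, MAP3K9, EPS8, DIAPH1 and TIAM1 were named after their values were seen. Alternatives were the mean of probe sets, probe sets without the suffix s or x, centring on the median, quantile normalization, a loess fit (span 0.7), an offset of 16, other floors, raising values to the floor, and 2-fold. The counting of differences was tested on simulated data. Python 3.11.15, numpy 2.4.6, pandas 2.3.3, statsmodels 0.14.6 and matplotlib 3.10.9 were used.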

Additional observations from a re-analysis of the deposited data

How the results depend on the processing

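No paired analysis was possible because each condition had 1 array. For the members at least 1.5-fold apart, the main counts were 1 probe set higher and 1 lower, and 0 genes higher and 1 lower. No share over all probe sets or genes is set beside the member counts of the alternatives below, and a changed filter changes that share too. With the mean of probe sets past the floor, 1 gene was higher (CDC42EP2, at 1.51) and 0 lower, and IQGAP1 and PAK2 stood at -0.22 and -0.17. The value of 1.51 rests on a probe set whose control reading lay below the floor. With such readings raised to the floor before the mean was taken, an alternative chosen after seeing the data, CDC42EP2 stood at 0.23, with 0 genes higher and 0 lower. With probe sets lacking the suffix s or x, 6 genes were left, with 1 gene higher (CDC42EP2, at 3.39, again on that probe set), 0 genes lower and 0 probe sets lower, and BAIAP2 and PAK4 stood at -0.36 and -0.15. With no floor 2 probe sets were lower. With the floor at the 75th percentile 3 genes were left, with 0 probe sets past 1.5-fold in either direction, 0 genes lower and a median difference of 0.026 in place of -0.13. With both values past the floor 0 probe sets were higher, and at 2-fold 0 probe sets and 0 genes were lower. The sign of the median over all members was kept under median centring, quantile normalization, loess and the offset of 16, where it lay between -0.13 and -0.082, and BAIAP2 was lower in each of the 10 alternatives that gave it a value, from -0.73 to -0.36.

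Of the 70 genes in the lists that reached the floor, 1 was higher and 5 lower. The count lower was 8 of 70 with the mean of probe sets. It was 3 of 70 with that mean after raising values to the floor, where 0 were higher. With no floor 8 of 79 were lower and 6 higher. The floor at the 75th percentile left 1 of 52 lower, and 2-fold 1 of 70. Probe sets lacking the suffix s or x gave 4 of 54, and both values past the floor 4 of 68. Median centring, quantile normalization, loess, the offset of 16 and values raised to the floor each gave 4 of 70. No share over all genes is given for these alternatives. The count higher was 0 with probe sets lacking the suffix s or x, the offset of 16, the floor at the 75th percentile, both values past the floor, values raised to the floor, and 2-fold. The cause of these changes was not tested. Intensities near the floor limit what can be read, since the SD of differences was 0.20 near the brightest CDC42EP3 probe set and 0.87 near the dim CDC42EP2 probe set.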
